A study of Mus musculus with 9 samples.

Results

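Liver-type plasma protein genes in the mouse nasal mucosa are a set of 10 genes, Alb, Hpx, Rbp4, Ttr, Fga, Fgb, Fgg, Ahsg, Itih3 and Cps1, out of 19938 genes represented on the arrays. They were taken by gene symbol from probe sets annotated to a single gene. Fga had 2 probe sets and the other 9 genes 1 each; of the 2, the brighter on average over all arrays stands for Fga. All 10 were measured, and no filter on low values was applied. In the GRCm38.p6 annotation of RefSeq, Hpx lies at chr7:105591611-105600116, Rbp4 at chr19:38116620-38125321, Ttr at chr18:20664209-20674326 and Alb at chr5:90460870-90476602. The fibrinogen genes lie at chr3:83007724-83015056 (Fgg), chr3:83026153-83033627 (Fga) and chr3:83042246-83049863 (Fgb), Ahsg at chr16:22892015-22899451, Itih3 at chr14:30908572-30923787 and Cps1 at chr1:67122426-67231267. The set was selected on log2 values of these same arrays, after several of its genes had been seen to be lower in the OVA group than in the arrays labelled control, so every difference of a member from the arrays labelled control is given as a description with no test.

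The study was an allergic rhinitis model in BALB/c mice, an inbred strain, with nasal mucosa RNA hybridised to 9 Affymetrix Mouse Gene 1.0 ST arrays. In the 4-week group, mice received ovalbumin (OVA), an egg white allergen, for sensitisation and then for challenge, and tissue was taken 4 weeks after the last challenge. In the OVA group, the same sensitisation and challenge were followed by sampling 2 hours after the last challenge. In the control group, saline replaced ovalbumin in both steps, and the labels do not state the time of sampling. Each group had 3 arrays. All samples are labelled male, with an age of 6 to 8 weeks in every group, and the animals were kept free of specific pathogens. The same age is given for groups sampled 2 hours and 4 weeks after the last challenge, so it may not be the age at sampling. The labels do not state that the arrays are of different animals; the p-values then reflect only how far these samples scatter, which may be technical.

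Most plasma proteins are made by hepatocytes and secreted into the blood. Their genes are switched on by a shared set of liver-enriched transcription factors, among them HNF1, HNF4 and C/EBP proteins. In the acute phase response, cytokines such as IL-6 raise some of them (the positive acute phase proteins, such as the fibrinogen chains and hemopexin) and lower others (the negative ones, such as albumin, transthyretin, retinol-binding protein and fetuin-A).

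The arrays carried the markers of nasal mucosa. Cyp2g1, an olfactory P450, lay between 12.69 and 12.99 on the log2 scale of the deposited values on all 9 arrays, and Omp, the marker of mature olfactory neurons, between 11.47 and 12.43. The sex-linked genes went against the label of 1 group. Xist, the noncoding RNA of X inactivation, had 4.27, 4.31 and 4.42 on the 4-week arrays and 4.36, 4.29 and 4.22 on the OVA arrays, against 10.62, 10.70 and 11.11 on the arrays labelled control. The 3 Y-linked genes measured (Eif2s3y, Kdm5d and Uty) lay between 7.12 and 8.46 on the 4-week arrays and between 6.98 and 8.47 on the OVA arrays, against 3.00 to 4.92 on the arrays labelled control. Saline treatment and the female pattern therefore cannot be told apart in any difference from the arrays labelled control. The labels name no batch, and the number of arrays limits the precision of each value.

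All 10 genes had lower values on each of the 6 4-week and OVA arrays than on each of the 3 arrays labelled control. Over all 23410 probe sets with a gene symbol, 6.48% had the 3 arrays labelled control above the other 6. The median difference over the 10 genes was −1.31 for 4-week minus control and −1.12 for OVA minus control, on the log2 scale, and the medians over all probe sets were −0.04 and −0.02. For 4-week minus OVA the median was −0.12, against −0.02 over all probe sets. In bulk RNA of this kind, fewer cells of a type and less RNA per cell cannot be told apart. Which group stood apart was the same for each gene, as the plot of values by array shows.

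**Figure D1:**
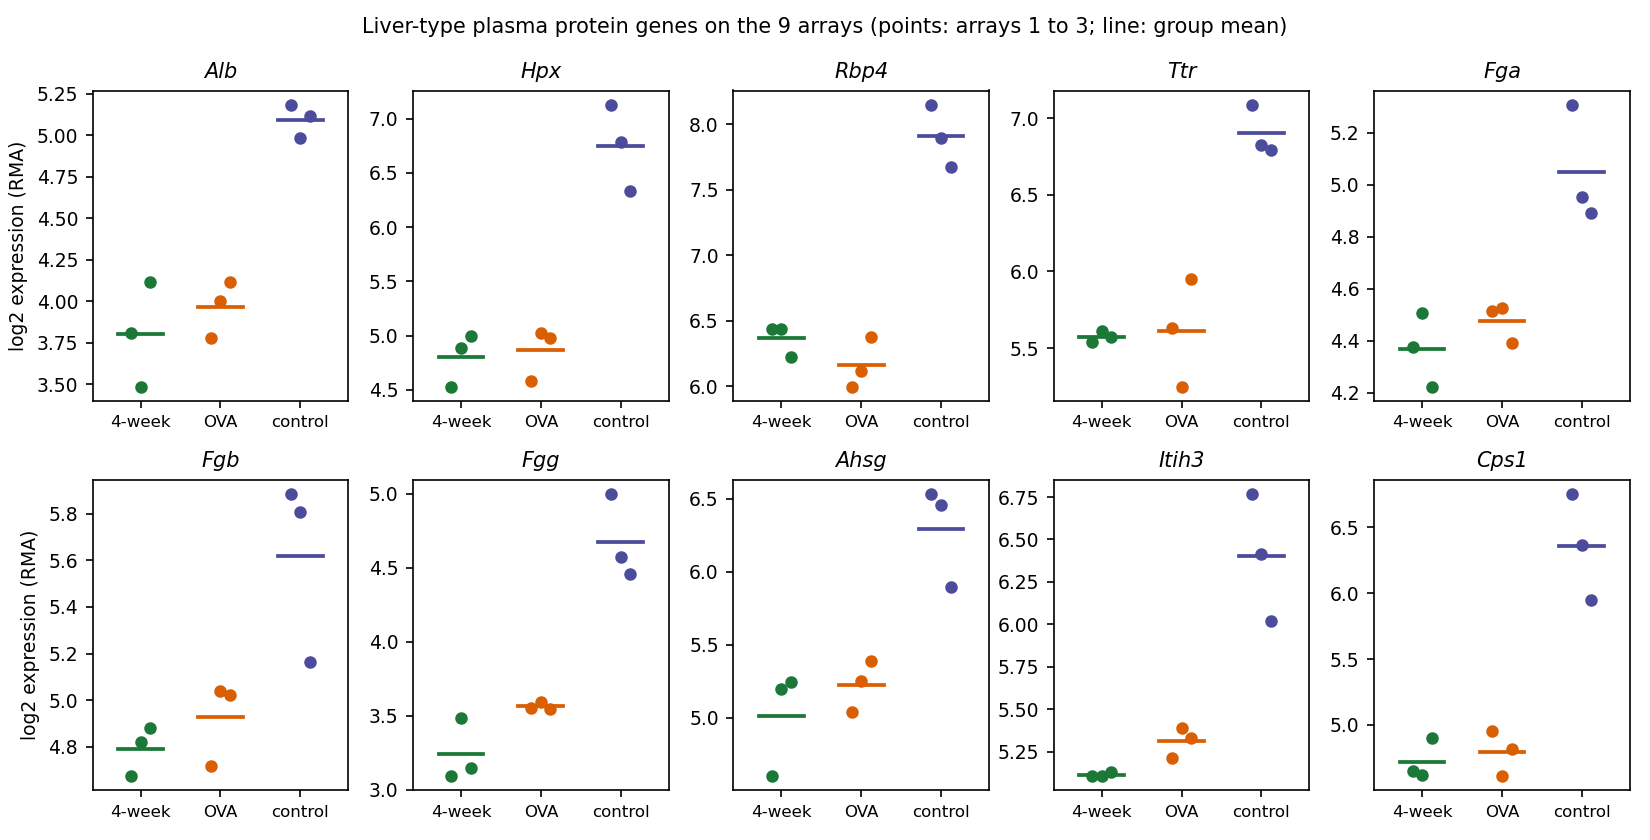
Log2 expression (RMA values, vertical axis, a separate scale per panel) of the 10 genes in the 4-week, OVA and control groups. Points are arrays 1 to 3 of a group and lines are group means; in every panel the 3 arrays labelled control lie above the other 6, by 0.12 for Fgb and by 1.30 for Hpx between the nearest arrays.

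Hpx encodes hemopexin, which binds free heme. It had 4.53, 4.89 and 4.99 on the 4-week arrays and 4.58, 5.03 and 4.98 on the OVA arrays, against 7.13, 6.79 and 6.33 on the arrays labelled control. The 2 ovalbumin groups overlapped, and both lay at least 1.30 below the lowest array labelled control. The mean was 3.85-fold lower in the 4-week group and 3.69-fold lower in the OVA group than in the arrays labelled control.

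Rbp4 encodes the plasma carrier of retinol. Its values were 6.44, 6.44 and 6.23 on the 4-week arrays and 6.00, 6.12 and 6.38 on the OVA arrays, against 8.15, 7.90 and 7.67 on the arrays labelled control. The mean was 6.37 ± 0.12 in the 4-week group and 6.17 ± 0.20 in the OVA group, against 7.91 ± 0.24 in the arrays labelled control (SD, n = 3 each). The 4-week mean was 2.91-fold and the OVA mean 3.35-fold lower than that of the arrays labelled control. Rbp4 was the only member whose 4-week mean lay above its OVA mean.

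Ttr encodes transthyretin, the carrier of thyroid hormone that also binds retinol-binding protein. It had 5.54, 5.61 and 5.57 on the 4-week arrays and 5.63, 5.25 and 5.95 on the OVA arrays, against 7.09, 6.83 and 6.79 on the arrays labelled control. The 4-week arrays lay close together (SD 0.03) inside the wider span of the OVA arrays (SD 0.35). The 4-week mean was 2.51-fold and the OVA mean 2.45-fold below the arrays labelled control.

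Alb encodes albumin, the most abundant plasma protein. It had 3.81, 3.48 and 4.12 on the 4-week arrays and 3.78, 4.00 and 4.12 on the OVA arrays, against 5.19, 4.98 and 5.11 on the arrays labelled control. The arrays labelled control lay close together (SD 0.10). The 4-week mean was 2.44-fold and the OVA mean 2.19-fold lower. On all 6 ovalbumin arrays the Alb value lay below the lower quartile of the tested probe sets, which was between 5.02 and 5.18, as did 2 of the 3 values on the arrays labelled control. Hpx, Fga, Fgb, Fgg and Cps1 also lay below it on all 6 ovalbumin arrays. The table has no detection calls, so whether such values lie above background is unknown. The folds given for these 6 genes are ratios of the values as they stand, which may understate a difference in RNA, and are not ranked between genes.

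The promoter of Alb is shown because it is the classic example of control by liver-enriched factors. The 250 bases before the RefSeq start of Alb lie at chr5:90460620-90460869, plus strand, in the GRCm38.p6 build of RefSeq. A script searched these bases on both strands for 4 patterns: GTTAAT, the core of HNF1 sites; TTGCNNAA, a C/EBP-type pattern; CTGGGAA, the core of IL-6 response elements in acute phase genes; and TATAAA. Capitals mark matches, written as they read on the gene's strand.
Alb: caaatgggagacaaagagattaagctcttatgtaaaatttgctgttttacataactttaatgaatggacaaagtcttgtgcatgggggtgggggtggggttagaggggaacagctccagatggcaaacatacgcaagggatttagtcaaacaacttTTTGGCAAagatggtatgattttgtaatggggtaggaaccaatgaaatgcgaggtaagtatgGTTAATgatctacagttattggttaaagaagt
The match to GTTAAT spans bases −32 to −27 before the start and the reverse-strand match to TTGCNNAA bases −94 to −87. GTTAAT occurred in 6.43% of 32851 promoters of the same length, TTGCNNAA in 9.56%, CTGGGAA in 9.10% and TATAAA in 12.4%. The table held promoters for 8 of the 10 genes (9 promoters in all, since Rbp4 had 2). GTTAAT was found in the promoters of 3 of these genes (Alb, Fga and Fgb), TTGCNNAA in 6 (Ahsg, Alb, Fga, Fgb, Hpx and Rbp4), CTGGGAA in 2 (Fgb and Fgg) and TATAAA in 1 (Rbp4). The matches overlapped in none of the printed sequences.

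Fga, Fgb and Fgg encode the alpha, beta and gamma chains of fibrinogen, the precursor of fibrin in clots. The genes stand side by side on chromosome 3, within 42.1 kilobases. Fgg had 3.09, 3.48 and 3.15 on the 4-week arrays and 3.56, 3.59 and 3.54 on the OVA arrays, against 4.9997, 4.57 and 4.46 on the arrays labelled control. All 4-week values of Fgg lay below all OVA values, and all 9 values lay below the lower quartile of their array. The 4-week mean of Fgg was 2.7-fold and the OVA mean 2.16-fold lower than that of the arrays labelled control.

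Fgb had 4.68, 4.82 and 4.88 on the 4-week arrays and 4.72, 5.04 and 5.02 on the OVA arrays, against 5.88, 5.81 and 5.16 on the arrays labelled control. Array 3 labelled control was the low one, 0.12 above the highest OVA array. Fga had 4.38, 4.51 and 4.22 on the 4-week arrays and 4.51, 4.53 and 4.39 on the OVA arrays, against 5.31, 4.95 and 4.89 on the arrays labelled control. The 4-week and OVA means were 1.77-fold and 1.61-fold lower for Fgb and 1.6-fold and 1.49-fold lower for Fga. The other probe set of Fga had 4.47, 4.32 and 4.14 on the 4-week arrays and 4.59, 4.61 and 4.34 on the OVA arrays, against 5.59, 4.68 and 4.84 on the arrays labelled control. There the nearest arrays were 0.07 apart, and the direction was the same.

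The promoters of the 3 chains are shown because their transcripts are made together in hepatocytes and respond together to IL-6. With the start at the right end, they lie at chr3:83025903-83026152 (Fga, plus strand), chr3:83049864-83050113 (Fgb, minus strand) and chr3:83007474-83007723 (Fgg, plus strand) of GRCm38.p6. Capitals mark matches to the 4 patterns given for Alb.
Fga: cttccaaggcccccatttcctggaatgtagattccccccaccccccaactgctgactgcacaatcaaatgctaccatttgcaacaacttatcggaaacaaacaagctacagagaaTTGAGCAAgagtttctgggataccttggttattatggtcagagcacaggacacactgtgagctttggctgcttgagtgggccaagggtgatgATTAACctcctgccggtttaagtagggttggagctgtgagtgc
Fgb: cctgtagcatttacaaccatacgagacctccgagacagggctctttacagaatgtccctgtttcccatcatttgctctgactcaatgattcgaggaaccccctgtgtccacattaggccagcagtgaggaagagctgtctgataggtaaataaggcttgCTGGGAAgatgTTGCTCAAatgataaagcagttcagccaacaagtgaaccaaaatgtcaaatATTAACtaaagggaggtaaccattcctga
Fgg: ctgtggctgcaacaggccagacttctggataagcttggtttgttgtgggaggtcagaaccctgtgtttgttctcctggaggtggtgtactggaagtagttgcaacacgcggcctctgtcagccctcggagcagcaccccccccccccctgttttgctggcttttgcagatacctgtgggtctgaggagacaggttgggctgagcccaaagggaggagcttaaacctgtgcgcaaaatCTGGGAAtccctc
In Fga the reverse of GTTAAT stands at −43 to −38 and in Fgb at −29 to −24. CTGGGAA stands at −91 to −85 in Fgb and at −13 to −7 in Fgg. A match describes the letters only and is not a site.

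Ahsg encodes fetuin-A, an inhibitor of calcification made in the liver. It had 4.60, 5.20 and 5.25 on the 4-week arrays and 5.04, 5.25 and 5.39 on the OVA arrays, against 6.53, 6.45 and 5.89 on the arrays labelled control. The groups given ovalbumin overlapped, with array 1 of the 4-week group the lowest. The 4-week mean was 2.43-fold and the OVA mean 2.09-fold lower than that of the arrays labelled control.

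Itih3 encodes a heavy chain of the inter-alpha-trypsin inhibitors, which bind hyaluronan. It had 5.11, 5.11 and 5.13 on the 4-week arrays and 5.21, 5.39 and 5.33 on the OVA arrays, against 6.77, 6.41 and 6.02 on the arrays labelled control. All 4-week arrays lay below all OVA arrays, by a small step. The 4-week mean was 2.44-fold and the OVA mean 2.13-fold lower than that of the arrays labelled control.

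Cps1 is the only member that does not encode a secreted protein: it is the mitochondrial enzyme of the first step of the urea cycle. It had 4.65, 4.62 and 4.90 on the 4-week arrays and 4.96, 4.61 and 4.82 on the OVA arrays, against 6.75, 6.36 and 5.95 on the arrays labelled control. The ovalbumin groups overlapped. The 4-week mean was 3.1-fold and the OVA mean 2.95-fold lower than that of the arrays labelled control.

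Between the 4-week and OVA groups the sex-linked genes did not differ in pattern, though the OVA arrays entered the choice of the genes. None of the 10 genes passed, with adjusted p from 0.22 to 0.916 and 0 at an unadjusted p under 0.05 (limma over 23410 probe sets, Benjamini-Hochberg). Of all probe sets, 6.33% passed in either direction. The 95% intervals of the log2 difference were −0.54 to 0.41 for Hpx, −0.11 to 0.52 for Rbp4, −0.40 to 0.33 for Ttr and −0.51 to 0.19 for Alb. They were −0.66 to 0.00903 for Fgg, −0.54 to 0.27 for Fgb and −0.38 to 0.16 for Fga. For Ahsg the interval was −0.69 to 0.27, for Itih3 −0.56 to 0.16 and for Cps1 −0.49 to 0.35. These intervals do not show that the groups are alike. Of the 110 other liver genes described next, 3 were lower and 0 higher in the 4-week than in the OVA group (2.73%, where 2.51% of all probe sets were lower): F2 (−0.48, adjusted p = 0.0223), Hgd, an enzyme of tyrosine breakdown (−0.53, adjusted p = 0.0387), and Orm2, an acute phase glycoprotein (−0.41, adjusted p = 0.0325). Each of these calls was lost in 4 to 6 of the 9 fits without an array. Fgg and Itih3 were the 2 genes whose 4-week arrays all lay below the OVA arrays, which held for 13.7% of all probe sets.

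**Figure D2:**
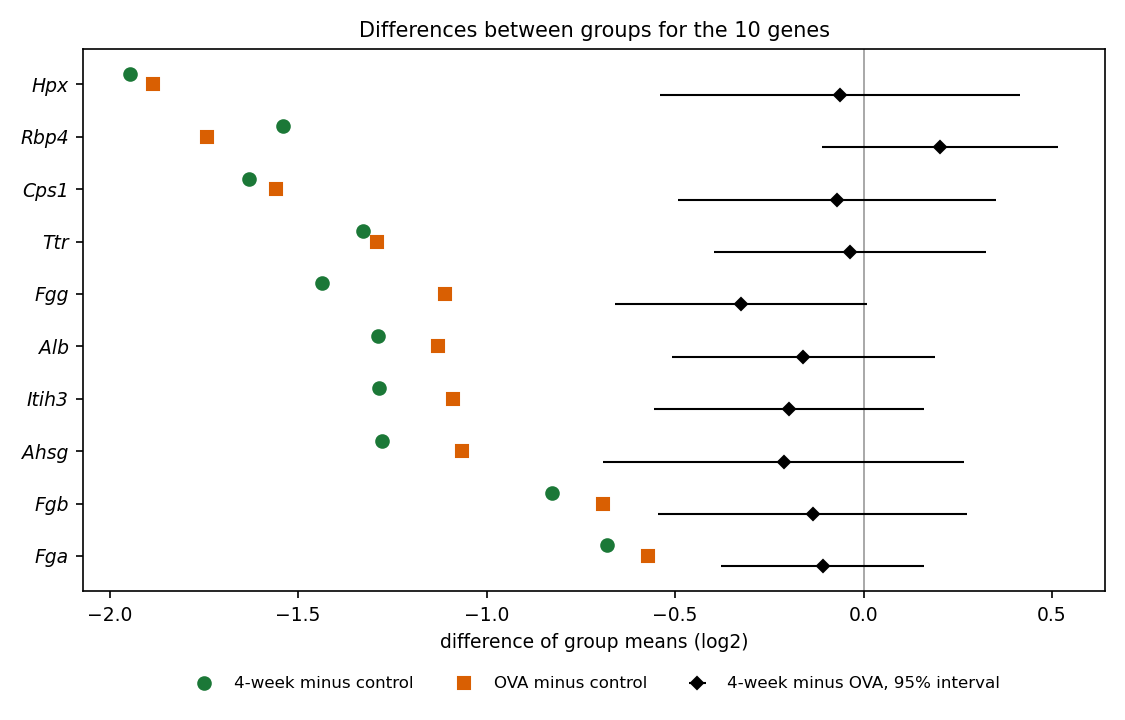
Differences of group means on the log2 scale (horizontal axis) for each of the 10 genes. Circles are 4-week minus control, squares OVA minus control and diamonds 4-week minus OVA with 95% intervals from limma; circles and squares lie between −1.95 and −0.57, while every interval of the diamonds includes 0.

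Within the arrays labelled control the 10 genes moved together. Array 1 had the highest value of the 3 for 10 of 10 genes and array 3 the lowest for 9 of 10, the exception being Alb. Over all tested probe sets array 1 was the highest in 38.8% and array 3 the lowest in 32.4%. Since the 10 genes moved together, their counts are not 10 independent observations. After each gene was centred on its own mean, the mean of the 10 genes was 1.12, 0.85 and 0.57 on arrays 1, 2 and 3 labelled control. It was −0.58, −0.44 and −0.42 on the 4-week arrays and −0.46, −0.38 and −0.27 on the OVA arrays. The spread between arrays labelled control was thus wider than within either of the other groups, and array 3 still lay above all 6.

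Genes of the same kind were looked at in lists of textbook liver genes that did not include the 10 members. The lists were chosen with earlier results of these data known. Their counts come from the same arrays as the choice of the members and are not independent of it. Of 110 such genes measured, 30 were lower and 4 higher in the mean of the 4-week and OVA groups than in the arrays labelled control (limma, adjusted p under 0.05). This is 27.3% lower, where 3.13% of all probe sets were lower and 4.22% higher (7.34% in either direction); of all probe sets called, 57.4% were higher, and 73.1% with each array centred on its median. Their median difference was −0.21, against −0.02 over all probe sets. The 3 arrays labelled control lay above the other 6 for 38 of the 110 (34.5%), where all probe sets gave 6.48%. In the separate comparisons 32 were lower and 3 higher in the 4-week group and 12 were lower and 0 higher in the OVA group than in the arrays labelled control, where 6.45% and 0.521% of all probe sets were lower and 7.92% and 0.782% higher. Of the 305 probe sets called between the OVA group and the arrays labelled control 183 were higher, but 52 of 109 when only those 6 arrays were fitted. These comparisons share the arrays labelled control with each other and with the members. The count of 34 genes called against the mean of both groups was 14 without array 2 labelled control and 20 without OVA array 1. The count of 12 for the OVA group was 2, 7 and 5 without OVA array 1, 2 or 3 and 6 and 3 without array 1 or 2 labelled control, and 7 with the replicate number as a block. Array 1 labelled control was the highest of its group for 19 of the 30 lower genes.

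**Figure D3:**
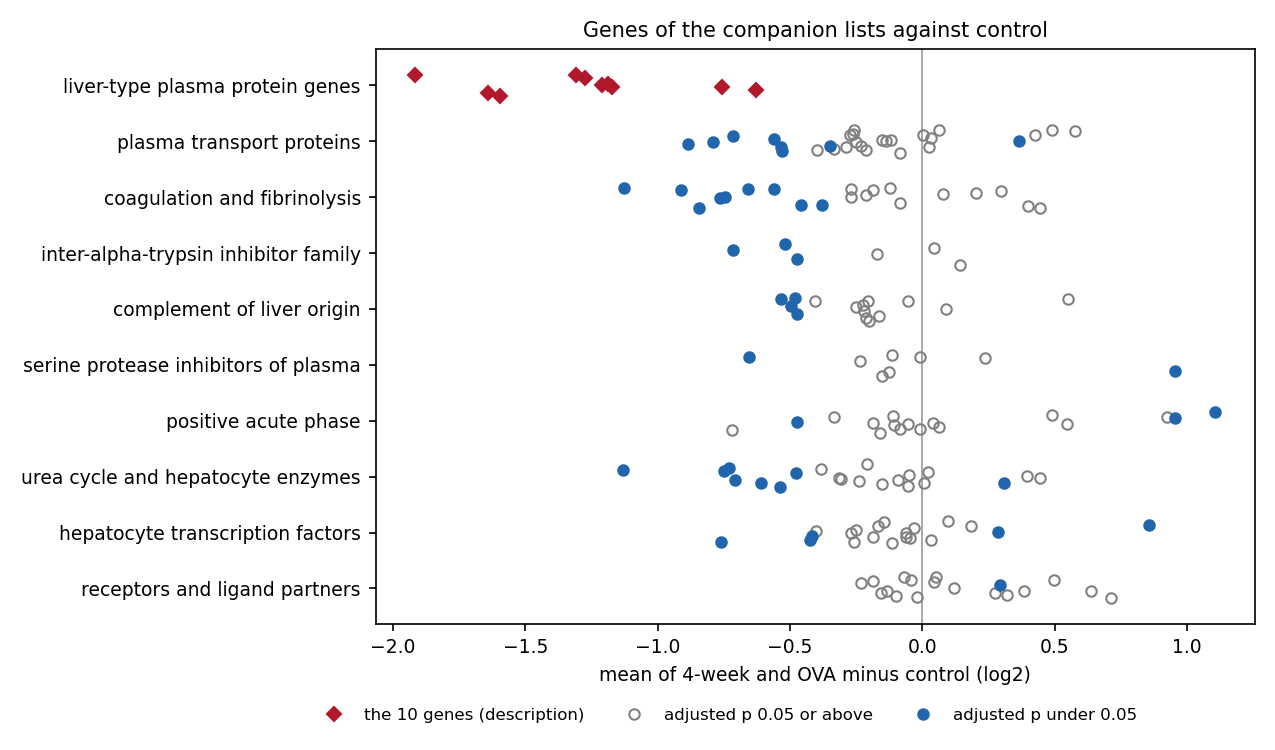
Difference of the mean of the 4-week and OVA groups from the arrays labelled control (log2, horizontal axis) for genes of 9 companion lists, with the 10 genes in the top row as a description. Filled circles passed at an adjusted p under 0.05 in limma; 9 of 20 coagulation genes and 7 of 21 urea cycle and hepatocyte enzymes passed with lower values.

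The coagulation and fibrinolysis genes, partners of fibrinogen, had 9 of 20 members lower and 0 higher (median −0.27). Vtn, vitronectin, had 4.85, 5.05 and 5.06 on the 4-week arrays and 4.85, 5.23 and 5.23 on the OVA arrays, against 6.40, 6.16 and 5.96 on the arrays labelled control. Its log2 difference from the arrays labelled control was −1.13 (SE 0.12, adjusted p = 0.00432 in limma, lower on 6 of 6 arrays). Serpinc1, antithrombin, had −0.91 (adjusted p = 0.00747), F2, prothrombin, −0.77 (adjusted p = 0.0039), Plg, plasminogen, −0.75 (adjusted p = 0.00737) and the factor IX gene F9 −0.66 (adjusted p = 0.00613). The calls of these 5 genes held without any single array. F12 had −0.56 and passed in all but 1 of the 9 fits without an array (adjusted p up to 0.0534). F2 was also lower in the 4-week than in the OVA group (−0.48, adjusted p = 0.0223), with 5.08, 5.09 and 4.90 against 5.34, 5.59 and 5.57, a call lost without OVA array 2 or 3 or 4-week array 2 or 3.

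Among plasma transport proteins, 7 of 28 were lower and 1 was higher (median −0.24). Apoc3, an apolipoprotein of triglyceride-rich particles, had −0.89 (adjusted p = 0.00745), Apob, the structural protein of those particles, −0.79 (adjusted p = 0.00613) and Hrg, histidine-rich glycoprotein, −0.56 (adjusted p = 0.0122). The calls of Apoc3, Apob and Hrg held without any single array. Ambp, the precursor of the inhibitor light chain bikunin, had −0.71 and Apoa2 −0.35, each losing the call in 1 of the 9 fits. Igfbp1 had −0.53 and kept its call in all 9. Apoa1, the main apolipoprotein of HDL, had −0.12 (adjusted p = 0.218) and Trf, transferrin, 0.00433 (adjusted p = 0.989), neither passing. Pon1 was the higher one (0.36, adjusted p = 0.0261, lost in 4 of the 9 fits).

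Itih1 and Itih4, sisters of Itih3, had −0.52 and −0.47 and passed (adjusted p = 0.0262 and 0.0236, lost in 3 and 4 of the 9 leave-one-out fits). Itih2 had −0.17 and did not pass (adjusted p = 0.338). With Ambp, 3 of the 6 measured genes of this family were lower and 0 higher. Of 15 complement genes, 4 were lower and 0 higher. Masp2, a protease of the lectin pathway, had −0.53 (adjusted p = 0.00524) and kept the call in all 9 fits. The calls of Hc, C8a and C8g were lost in 7, 8 and 5 of them. Among 8 plasma protease inhibitors, Pzp, an alpha-2-macroglobulin relative, had −0.65 (adjusted p = 0.00514), while Serpina3n had 0.95 (adjusted p = 0.0405, lost in 6 of the 9 fits).

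The 17 positive acute phase genes had 1 lower member and 2 higher ones (median −0.05). Itih4 was the lower one, and Cd14, the lipopolysaccharide co-receptor, and Serpina3n were the higher ones. Cd14 had 1.11 (adjusted p = 0.0422, lost in 8 of the 9 fits). Saa3 had −0.11 (adjusted p = 0.569), Orm1 −0.00867 (adjusted p = 0.986) and Hp, haptoglobin, 0.06 (adjusted p = 0.916), none passing. Among the 10 members themselves the fibrinogen chains and Hpx, which rise in an acute phase response, and Alb, Ttr, Rbp4 and Ahsg, which fall in it, all had lower values than in the arrays labelled control. The members were chosen after several had been seen to be lower, and the part of an acute phase response was not tested.

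Of 21 urea cycle and other hepatocyte enzymes, 7 were lower and 1 higher (median −0.24). Tdo2, the liver enzyme that starts tryptophan breakdown, had 3.11, 3.14 and 3.38 on the 4-week arrays and 3.39, 3.40 and 3.44 on the OVA arrays, against 4.44, 4.31 and 4.55 on the arrays labelled control. This was a difference of −1.13 (SE 0.08, adjusted p = 0.000823 in limma), called in all 9 fits. Bhmt, a methyl donor enzyme, had −0.75 (adjusted p = 0.00576, kept in all 9), Hgd −0.71 and Pck1 −0.48 (both lost in 1). Otc, the urea cycle enzyme after Cps1, had −0.38 and did not pass (adjusted p = 0.0845), nor did Arg1 (0.39, adjusted p = 0.637). Glul was the higher one (0.31, adjusted p = 0.031, lost in 6 of the 9 fits).

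Of 20 transcription factors of hepatocytes, 3 were lower and 2 higher. Hnf4a, a master regulator of hepatocyte genes, had 5.47, 5.61 and 5.67 on the 4-week arrays and 5.55, 5.66 and 5.53 on the OVA arrays, against 6.09, 6.03 and 5.87 on the arrays labelled control (−0.42, adjusted p = 0.0153). This call was lost only without array 2 labelled control (adjusted p = 0.0648). Creb3l3, a liver-enriched factor, had −0.42 (adjusted p = 0.0216, lost in 2 of the 9 fits), and Dbp, a clock-controlled factor, −0.76 (adjusted p = 0.00738, kept in all 9). Foxa1 (0.03, adjusted p = 0.955) and Cebpa (0.10, adjusted p = 0.44), both also active outside the liver, did not pass. Cebpd (0.86, adjusted p = 0.0308, lost in 7 of the 9 fits) and Stat3 (0.29, adjusted p = 0.0344, lost in 8), which act in the response to IL-6, were the higher ones. Among 18 receptors and partners of the plasma proteins, 0 were lower and 1 was higher: Il6st, the signalling subunit of the IL-6 receptor (0.29, adjusted p = 0.034, lost in 7 of the 9 fits). Stra6, the receptor of retinol-binding protein, had −0.19, Lrp1, the hemopexin receptor, 0.12 and Hmox1, the heme-degrading enzyme, 0.38, none passing (adjusted p = 0.169, 0.369 and 0.125).

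The 10 other genes whose values over the 9 arrays were most correlated with the mean of the members had Pearson's r between 0.969 and 0.989, a measure that mainly reflects the gap between the arrays labelled control and the other 6. They were Vtn, A1cf, A430033K04Rik, Apob, Pzp, Plg, 1300017J02Rik, Slc38a4, Olfr854 and Hsf3. Of these, 4 (Vtn, Apob, Pzp and Plg) stood in the liver lists, which held 110 of the 19938 genes represented. A high r need not mean a large difference: A430033K04Rik had −0.14 against the arrays labelled control and did not pass (adjusted p = 0.108 in limma). A1cf, a cofactor of apolipoprotein B mRNA editing, averaged 3.24 ± 0.06 in the 4-week group and 3.27 ± 0.06 in the OVA group, against 3.93 ± 0.22 in the arrays labelled control (SD, n = 3 each). Slc38a4, an amino acid transporter of the liver, averaged 4.29 ± 0.08 in the 4-week group and 4.26 ± 0.24 in the OVA group, against 5.40 ± 0.15 in the arrays labelled control.

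**Figure D4:**
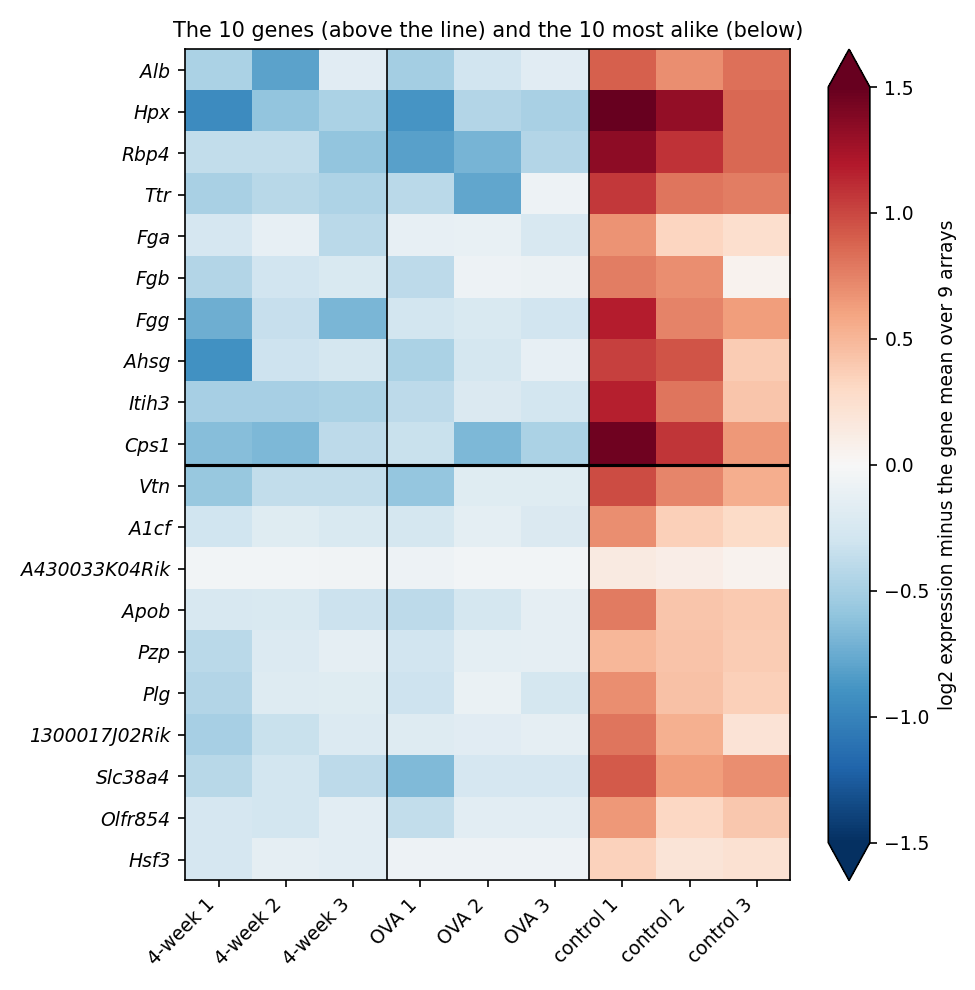
Log2 expression of each gene minus its mean over the 9 arrays (colour scale, capped at 1.5 either way) for the 10 liver-type plasma protein genes above the line and the 10 genes most correlated with their mean below it. Columns are arrays. All 20 genes are highest on the 3 arrays labelled control, a pattern that the choice of both sets favoured.

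Markers of other cell types were read on the same arrays, as the plot of list means shows, and set against the arrays labelled control in the same limma fit. For the marker counts that follow, 3.13% of all probe sets passed with lower and 4.22% with higher values in the mean of the 4-week and OVA groups. For endothelial markers the arrays labelled control lay lowest, the other way round from the 10 genes. Their mean level was 6.65 to 6.87 on the 4-week arrays and 6.61 to 6.70 on the OVA arrays, against 6.42 to 6.59 on the arrays labelled control, with no overlap. Of the 11 genes 0 had a negative difference (median 0.15, against −0.02 over all probe sets). Higher values passed for 2 (18.2%), Pecam1 (0.29, adjusted p = 0.0439) and Cdh5 (0.32, adjusted p = 0.0289), calls lost in 8 and 7 of the 9 leave-one-out fits. No share over all probe sets was computed for the sign of a difference, nor a background for a gap between list means.

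Of 15 fat markers, read because fat cells also make Rbp4, 0 passed in either direction and 3 had an unadjusted p under 0.05. Their mean level was 5.68 to 5.90 on the 4-week arrays and 5.74 to 5.77 on the OVA arrays, against 5.72 to 5.82 on the arrays labelled control. Among 9 choroid plexus markers, a tissue rich in Ttr, 1 was higher (Clic6, lost in 7 of the 9 fits) and 0 lower. The mean level of these was 7.03 to 7.17 on the 4-week arrays and 7.07 to 7.17 on the OVA arrays, against 6.96 to 7.05 on the arrays labelled control. Macrophage and neutrophil markers had 1 of 13 lower, Mpo, myeloperoxidase (−1.18, adjusted p = 0.0414, lost in 7 of the 9 fits). Their mean level overlapped between groups, with 6.14 to 6.72 on the 4-week arrays and 6.51 to 7.01 on the OVA arrays, against 6.42 to 7.15 on the arrays labelled control. Erythroid markers had 1 of 9 lower, Tspo2 (lost in 8 of the 9 fits), but only 2 of the 9 had a negative difference (median 0.22). The haemoglobin genes were not analysed here. Skeletal muscle and ciliated cell markers had 0 of 12 and 0 of 11 passing either way.

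Olfactory neuron markers had 2 of 12 higher, Gng8 and Gap43, and 1 lower, Rtp1 (lost in 5, 2 and 7 of the 9 fits). The 2 higher genes went against most of their list, in which 9 of 12 had a negative difference (median −0.22). Krt18 was the 1 of 11 sustentacular and Bowman gland markers that was higher (lost in 1 of the 9 fits). At an unadjusted p under 0.05 in limma, in either direction, there were 7 of 13 macrophage and neutrophil and 7 of 12 olfactory neuron markers. There were also 8 of 22 nasal gland, 4 of 9 erythroid, 3 of 11 endothelial and 3 of 9 choroid plexus markers. The remaining lists had 3 of 11 sustentacular and Bowman gland, 2 of 11 ciliated cell and 1 of 12 skeletal muscle markers. The share of all probe sets at that level was not computed, so these counts, and the 3 of 15 fat markers, have no background.

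Nasal gland markers had 2 of 22 lower, Bpifb9a (−3.66, adjusted p = 0.0277) and Bpifb9b (−3.36, adjusted p = 0.0405). These calls were lost in 5 and 6 of the 9 leave-one-out fits (adjusted p up to 0.101 and 0.128). Only 8 of the 22 had a negative difference (median 0.21, against −0.02 over all probe sets), so most gland markers lay the other way. The mean level of the list, given below, includes Bpifb9a and Bpifb9b. Bpifb9a, a secreted protein of nasal glands, had 9.89, 7.74 and 8.33 on the 4-week arrays and 5.12, 5.82 and 8.21 on the OVA arrays, against 9.87, 11.57 and 12.10 on the arrays labelled control. The 4-week array 1 overlapped the arrays labelled control, and array 1 labelled control, the highest for the 10 liver-type genes, was the lowest of its group here. The mean level of all 22 gland markers was 10.03 to 10.65 on the 4-week arrays and 10.25 to 10.45 on the OVA arrays, against 10.55 to 10.70 on the arrays labelled control. For olfactory neuron markers the mean level was 9.56 to 9.98 on the 4-week arrays and 9.77 to 9.95 on the OVA arrays, against 9.77 to 10.10 on the arrays labelled control. No defining marker was at 0, since the scale has no true 0. The part of these cell types in the values of the plasma protein genes was not tested.

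**Figure D5:**
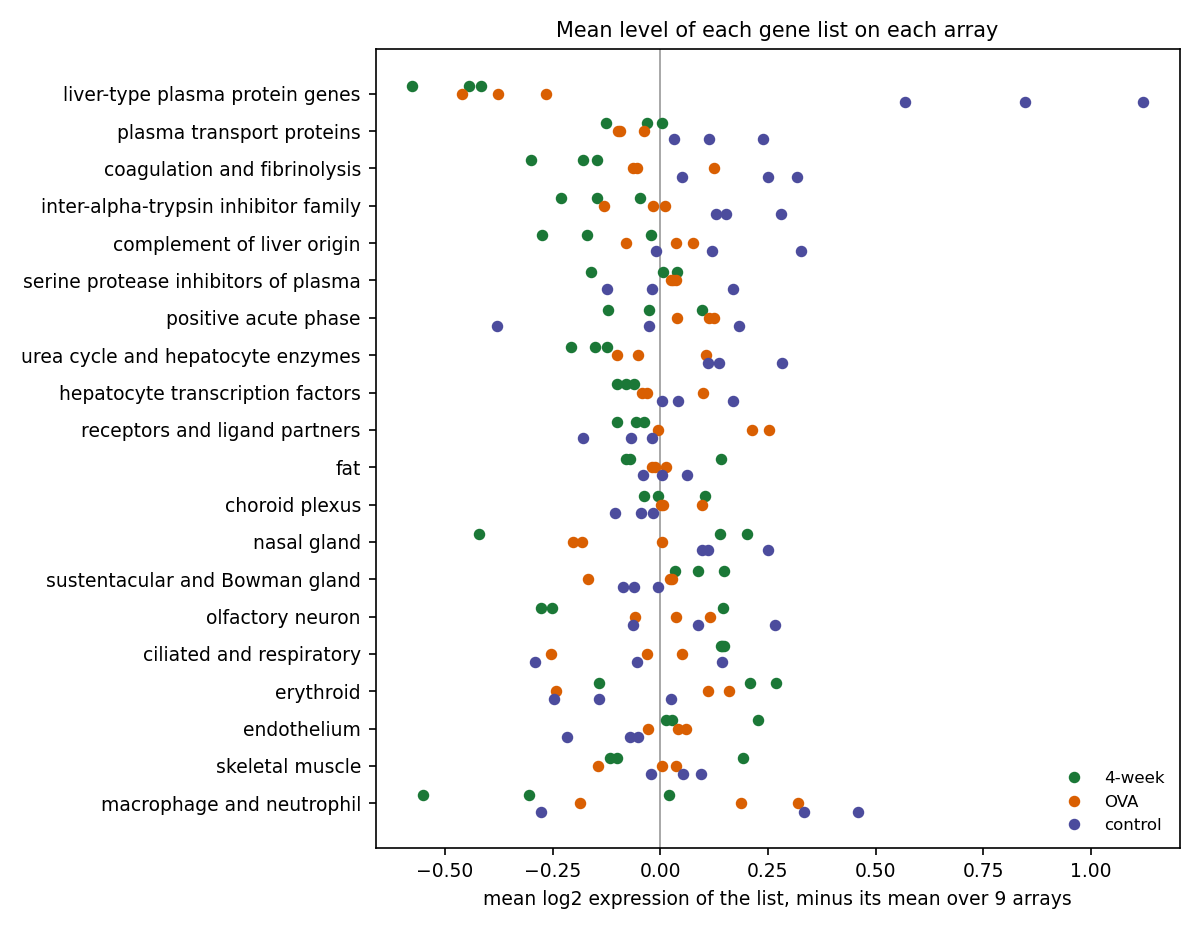
Mean log2 expression of each gene list on each array, minus the mean of that list over the 9 arrays (horizontal axis), for the 10 liver-type plasma protein genes and 19 companion and marker lists. Each point is an array; the 10 genes have the 3 arrays labelled control at 0.57 to 1.12 and the other 6 between −0.58 and −0.27.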

How the data were processed

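Nasal mucosa RNA of 9 samples was measured on Affymetrix Mouse Gene 1.0 ST arrays. The deposited log2 values were made by the authors with RMA, which corrects background, normalizes arrays by quantiles and summarises probes, per the submitters' processing notes; its version is not given in the sources used here. Of 35556 rows, 23410 had a gene symbol in the platform annotation of 2016 (21789 with 1 gene, 1621 with several), and 21698 were matched to the RefSeq table of GRCm38.p6, which also gave the promoters. That the scale is log2 was read from the values.

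From these values limma 3.58.1 in R 4.3.3 fitted 1 mean per group to all 9 arrays (6 residual and 2.98 prior degrees of freedom), with two-sided tests adjusted by Benjamini-Hochberg over 23410 probe sets and a threshold of 0.05. The fit was tested on simulated data. Groups came from the sample labels. The members and gene lists were chosen with earlier results of these data known. Named were the members, up to 6 called genes per liver, regulator or partner list, a set of fixed genes (those without a single-gene probe set were not analysed here) and the 10 genes most correlated with the members' mean. Omp, Masp2 and the called marker genes were named with their values known where they fell outside this rule. Alternatives changed the scaling, the filter on low values, the rows tested, the arrays fitted, the variance prior, the block and the probe set.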

Additional observations from a re-analysis of the deposited data

How the results depend on the processing

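All 10 genes kept the 3 arrays labelled control above the other 6 under quantile normalization and median centring. Leaving out an array cannot undo such a separation, so the fits without an array do not bear on it. A filter keeping the upper 60% of probe sets by mean kept 2 of the genes (Rbp4 and Ttr), with unchanged values. The member median was then −1.52 for OVA minus control and −1.48 for the mean of both groups minus control. Only 32 of the 110 other liver genes passed that filter, which left 0 of 3 called for 4-week minus OVA, 5 of 35 for 4-week minus control, 1 of 12 for OVA minus control and 5 of 34 for the mean of both groups minus control. Quantile normalization gave 0 for 4-week minus OVA and 21 for 4-week minus control. Fitting only the arrays compared gave 0 liver genes for 4-week minus OVA and 2 for OVA minus control, and 737, 2054 and 109 probe sets called for 4-week minus OVA, 4-week minus control and OVA minus control, against 1481, 3364 and 305. Testing every row of the table gave 143 probe sets and 4 liver genes for OVA minus control. With the replicate number as a block, 7 liver genes were called for OVA minus control, and 1397, 3271, 213 and 1388 probe sets for 4-week minus OVA, 4-week minus control, OVA minus control and the mean of both minus control. No label pairs arrays of the same number, and in this check of the pairing their deviations from the group means had r from −0.04 to 0.33, over 0.1 in 5 of 9 pairs. Leaving out 1 array gave 446 to 1361, 1560 to 2966, 63 to 305 and 402 to 1411 probe sets called for the same 4 comparisons, and 0 to 3, 24 to 36, 2 to 13 and 14 to 30 liver genes. Of all probe sets called, median centring made 78.1% higher for 4-week minus OVA and 75.7% for 4-week minus control, against 60.3% and 55.1%. The causes of these shifts were not tested. The filter left fewer genes, and some of the fits used fewer arrays, but the part of these numbers in the shifts was not tested either. Low signal limits 6 of the 10 genes, whose values on the 4-week and OVA arrays all lay under the lower quartile of their array. It also limits companion genes, which were not counted in this way. Tdo2, A1cf, Apob, Slc38a4 and Plg lay below 5.02, the lowest such quartile, on every 4-week and OVA array. Whether those values lie above background is unknown, also where a call held without any single array.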
